A study of Homo sapiens with 6 samples.

Results

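The Hedgehog genes described here are the ligand genes SHH and IHH, the ligand-binding inhibitor HHIP, the receptor gene PTCH1, the signal transducer SMO, the cytoplasmic inhibitor SUFU and the transcription factor genes GLI1, GLI2 and GLI3. They were chosen by name, as core genes of the pathway and because GLI1 has been reported to respond to loss of SMARCB1 in rhabdoid cells. Earlier results of these data were known when the choice was made. All 9 were measured, among 18417 genes in all, each by 1 probe set. The samples were cultures of A204, a human rhabdoid tumour cell line. Rhabdoid tumours typically lose SMARCB1, which belongs to the chromatin-remodelling complex SWI/SNF. The histone deacetylase inhibitor SAHA, also called vorinostat, was given for 12 h before the RNA of 3 arrays was taken, and 3 further arrays hold the RNA of control cells given DMSO, per the treatment protocol. Another label gives the treatment of the control cells as none, and the unit of the SAHA dose is incomplete in the labels, so no dose is stated. All 6 arrays come from this 1 cell line. The labels do not tell whether replicate arrays stem from different cultures. The p-values may therefore rest on technical spread alone.

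Hedgehog ligands are secreted proteins that bind PTCH1 on receiving cells. Without ligand, PTCH1 holds SMO inactive, and the GLI2 and GLI3 proteins are cut or degraded. With ligand, SMO moves into the primary cilium, GLI factors escape SUFU and enter the nucleus, and target genes are transcribed. GLI1, PTCH1 and HHIP are themselves classical targets, and PTCH1 and HHIP then damp the signal. The SMARCB1 protein has been reported to bind GLI1, and the GLI1 and GLI2 proteins are known to be deacetylated by class I histone deacetylases. The arrays measure RNA, so neither protein cutting nor acetylation was observed here.

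Of the 9 genes, 4 fell and 2 rose in SAHA at an adjusted p under 0.05 (limma, Benjamini-Hochberg over all genes), and 3 did not pass. HHIP and SMO fell by more than 2-fold, GLI1 and SHH by less, and PTCH1 and GLI3 rose. The classical targets thus moved both ways, GLI1 and HHIP down and PTCH1 up. The share called was 66.7%, against 60.0% of all genes, of which 31.1% were higher and 28.9% lower. For the same 6 genes the SAHA and control values did not overlap, again 66.7%, against 65.4% of all genes. Both shares are near those of all genes, so the count of changed genes does not set the Hedgehog genes apart. The median size of the change, regardless of sign, was 0.59 log2 units for the 9 genes and 0.24 for all genes. The 9 genes were not matched to all genes for signal level, so these medians are not a like comparison. RNA came from bulk cultures, so fewer cells of a type and less RNA per cell cannot be told apart.

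**Figure D1:**
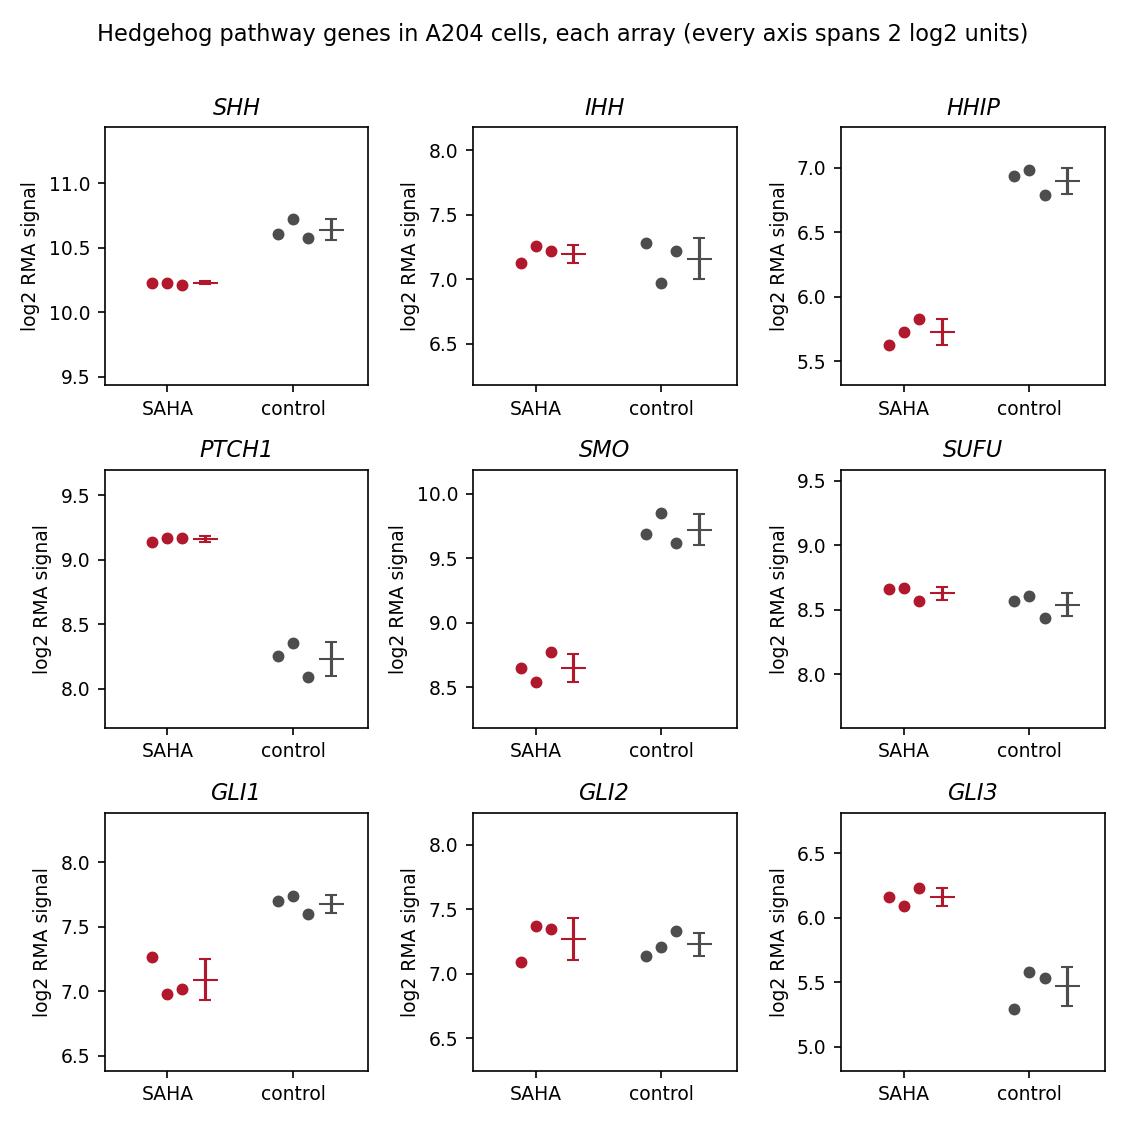
Log2 RMA signal of the 9 Hedgehog genes on each array, with 3 SAHA arrays to the left of 3 control arrays. Points are arrays, bars beside them the mean and SD, and each axis spans 2 log2 units. The groups are apart for SHH, HHIP, PTCH1, SMO, GLI1 and GLI3 and overlap for IHH, SUFU and GLI2.

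Before log2 was taken, the arrays had median RMA signals of 142.2 to 148.7. Arrays of the same group correlated at 0.9965 or more over 33252 probe sets (Pearson, log2, across probe sets, which are not independent replicates), and no array stood apart. Detection calls were not used, so it is unknown which genes exceed the background. Of 5 genes listed for the labelled cells, VIM (vimentin) lay at 12.61 to 12.65 in SAHA and 12.78 to 12.84 in control. SMARCB1, which rhabdoid tumours typically lose, lay at 7.16 to 7.25 and 7.71 to 7.78 in the same order. VIM, SMARCB1, KRT18 and MUC1 changed by -0.18, -0.51, -0.21 and -0.28, each called lower, and KRT8 did not pass. Whether the SMARCB1 signal comes from an intact transcript was not tested. Of 4 skeletal muscle markers the myogenic factor genes MYOD1, MYOG and MYF5 did not pass and DES, which encodes desmin, rose by 0.76, with a summed log2 signal of 9.22 to 9.32 in SAHA and 8.89 to 8.95 in control. That of 3 of 4 blood cell markers was 10.67 to 10.72 in SAHA and 9.12 to 9.47 in control, and that of 4 endothelial markers was 10.67 to 10.73 in SAHA and 12.74 to 12.79 in control. Among blood markers CD68 rose by 1.55, and PTPRC and CD3E did not pass. Among endothelial markers CDH5 changed by -2.19, KDR rose by 0.64, and PECAM1 and VWF did not pass. Of 3 epithelial markers KRT19 and EPCAM rose by 0.80 and 0.14 and CDH1 changed by -0.17, with sums of 11.91 to 11.95 in SAHA and 11.27 to 11.47 in control. The part of these marker genes in the results below was not tested.

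Among the ligand genes, SHH encodes Sonic hedgehog, the ligand of neural tube and limb patterning. Its log2 signal was 10.23, 10.23 and 10.21 in the 3 SAHA arrays, against 10.61, 10.72 and 10.58 in the 3 control arrays. Every SAHA array was lower than every control array. The change was -0.41 log2 units with a 95% confidence interval of -0.53 to -0.30, or 1.33-fold lower (limma adjusted p = 0.000142). IHH, the ligand of cartilage growth, was at 7.13, 7.26 and 7.22 in SAHA and 7.28, 6.97 and 7.22 in control. The groups overlapped, control array 2 being the lowest of all 6, and the difference of 0.04 (interval -0.15 to 0.24) did not pass (adjusted p = 0.691).

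HHIP encodes a membrane protein that binds Hedgehog ligands and keeps them from PTCH1. Its fall was the largest of the 9 genes, with 5.63, 5.73 and 5.83 in SAHA arrays against 6.94, 6.98 and 6.79 in control arrays. The gap between the groups, about 1 log2 unit, was far wider than the spread within either. The change was -1.17 (interval -1.34 to -1.01), or 2.26-fold lower (adjusted p = 2.06e-06), and its size lay at percentile 91.8 among the sizes of change of all genes. The SAHA level is low on this array scale and no background call was made, so the fold could be compressed.

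PTCH1 encodes the membrane receptor that binds the ligands and represses SMO. It had 9.14, 9.17 and 9.17 in SAHA and 8.25, 8.35 and 8.09 in control. All SAHA arrays were higher, and they were closer together (SD 0.02) than the control arrays (SD 0.13). The rise was 0.93 (interval 0.77 to 1.09), or 1.91-fold (adjusted p = 6.66e-06), at percentile 87.3 of all sizes of change. SMO encodes the membrane protein that PTCH1 represses. It had 8.65, 8.54 and 8.77 in SAHA against 9.69, 9.85 and 9.62 in control, so that the groups did not overlap. The change was -1.07 (interval -1.25 to -0.89), or 2.10-fold lower (adjusted p = 7.16e-06), opposite in sign to that of its repressor PTCH1.

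SUFU encodes the cytoplasmic protein that binds GLI factors and keeps them inactive. Its signal was 8.66, 8.67 and 8.57 in SAHA and 8.57, 8.61 and 8.44 in control. The groups overlapped, and the difference of 0.10 (interval -0.04 to 0.23) did not pass (adjusted p = 0.195). The interval does not show that the level stayed the same, but it excludes a 2-fold change in either direction under this model.

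The GLI genes, which encode zinc finger transcription factors, did not move alike. GLI1, an activator and a common readout of the pathway, was at 7.27, 6.98 and 7.02 in SAHA and at 7.70, 7.74 and 7.60 in control. SAHA array 1 was the nearest to the controls but still lower than all of them. The change was -0.59 (interval -0.78 to -0.40), or 1.51-fold lower (adjusted p = 0.000329), at percentile 75.7 of all sizes of change. GLI2, the main activator downstream of SMO in mice, had 7.09, 7.37 and 7.35 in SAHA and 7.14, 7.21 and 7.33 in control. SAHA holds both its lowest and its highest value, and the difference of 0.04 (interval -0.15 to 0.24) did not pass (adjusted p = 0.695). GLI3, whose cut form is the main repressor, had 6.16, 6.09 and 6.23 in SAHA against 5.29, 5.58 and 5.53 in control. All SAHA arrays were higher, and the rise was 0.69 (interval 0.50 to 0.88), or 1.61-fold (adjusted p = 0.000113). The control mean of GLI3, 5.47, is low on this array scale and no background call was made, so the fold could be compressed.

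**Figure D2:**
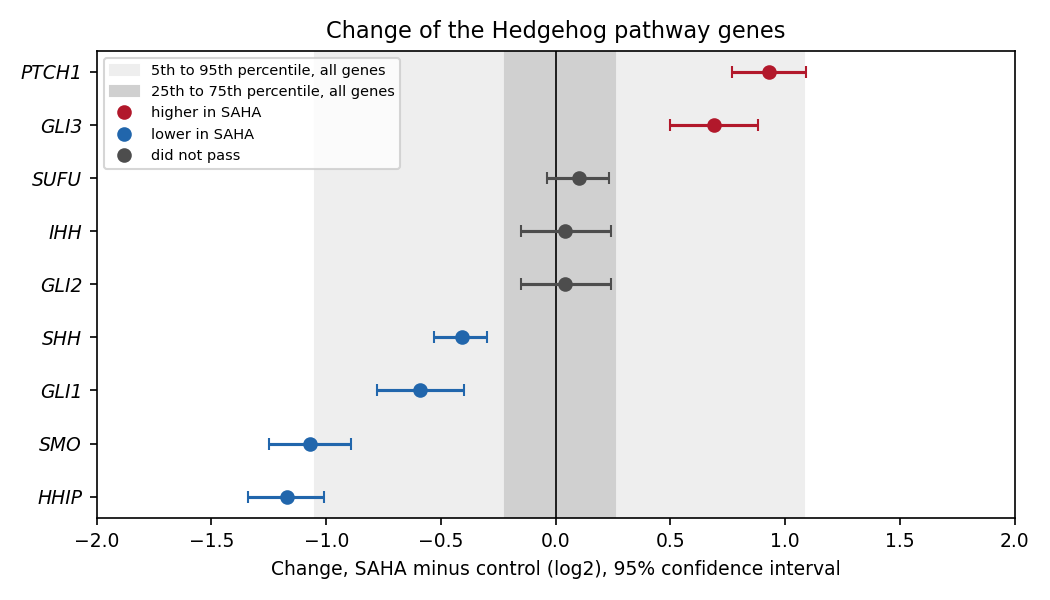
Change of each Hedgehog gene (log2, SAHA minus control) with its 95% confidence interval from limma (n = 3 arrays per group), over bands of the changes of all 18417 genes. HHIP and SMO lie near or beyond the low edge of the 5th to 95th percentile band (-1.05 to 1.08), PTCH1 lies near its high edge, and GLI2, IHH and SUFU have intervals that include 0.

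The unequal changes were also measured within each array, where an offset common to the whole array drops out. The log2 signal of PTCH1 minus that of HHIP was 3.51, 3.44 and 3.35 in SAHA and 1.32, 1.37 and 1.30 in control, a shift of 2.10. PTCH1 minus GLI1 was 2.07 ± 0.18 in SAHA and 0.55 ± 0.06 in control (SD, n = 3), a shift of 1.52. Each pair here sets a gene that rose against one that fell, and in none did the groups overlap. PTCH1 minus SMO was 0.51 ± 0.11 in SAHA and -1.49 ± 0.05 in control, a shift of 2.0. GLI3 minus GLI1 was -0.93 ± 0.17 in SAHA and -2.21 ± 0.17 in control, a shift of 1.28. Each of these 4 comparisons gave p = 0.10 in a two-sided exact permutation test over arrays, also after Benjamini-Hochberg adjustment over the 4, and 0.10 is the smallest p that 3 against 3 arrays allow. The pairs were chosen after the values of the genes were seen. Since each set a gene higher in every SAHA array against one lower in every SAHA array, the groups had to separate. The p of 0.10 was thus fixed by the choice and adds no evidence.

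Promoter sequences are shown for PTCH1, the classical target that rose, and for HHIP and SMO, the genes with the largest falls. RefSeq promoter windows (GRCh38.p14, 300 bases, 250 before to 50 after an annotated start) were at hand for 7 of the 9 genes, 12 windows in all. GLI1 and GLI3 had none. The windows were searched on both strands for the GLI consensus GACCACCCA and for the GC box GGGCGG, which SP1 binds. The motifs share no letters in the matches shown. Capitals mark the matches in the 250 bases before the start.
PTCH1 (chr9:95509267-95509516, minus strand, 1 of 5 annotated starts): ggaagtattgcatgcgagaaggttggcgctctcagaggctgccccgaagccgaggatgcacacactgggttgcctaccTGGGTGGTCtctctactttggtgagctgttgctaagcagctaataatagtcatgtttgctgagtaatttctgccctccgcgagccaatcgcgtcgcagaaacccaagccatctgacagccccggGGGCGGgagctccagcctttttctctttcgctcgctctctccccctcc
HHIP (chr4:144645906-144646155, plus strand): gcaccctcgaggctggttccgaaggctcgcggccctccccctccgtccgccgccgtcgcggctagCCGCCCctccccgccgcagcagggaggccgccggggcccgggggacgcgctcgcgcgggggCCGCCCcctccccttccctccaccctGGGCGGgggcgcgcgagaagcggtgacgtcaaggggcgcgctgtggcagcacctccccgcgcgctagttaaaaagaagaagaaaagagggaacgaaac
SMO (chr7:129188383-129188632, plus strand): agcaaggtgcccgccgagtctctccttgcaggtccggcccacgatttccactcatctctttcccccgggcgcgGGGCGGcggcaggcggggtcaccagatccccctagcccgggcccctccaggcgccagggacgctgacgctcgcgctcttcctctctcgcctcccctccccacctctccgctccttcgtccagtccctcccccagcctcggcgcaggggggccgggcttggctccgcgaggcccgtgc
The PTCH1 window holds a GLI consensus match, written as TGGGTGGTC on the gene's strand, whose first base is at -172 from the start, and a GC box match at -48. The GLI consensus matched in none of the other 11 windows of these genes, and in 0.236% of all 35116 RefSeq windows. GC box matches are common, found in 45.0% of all windows. HHIP had 3 of them, SMO 1, SUFU 3 and IHH 5, so they were present at genes that fell, rose or did not pass. The probe set of PTCH1 does not separate its starts. A match of letters is a description, and no match says only that these letters are not in the window.

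**Figure D3:**
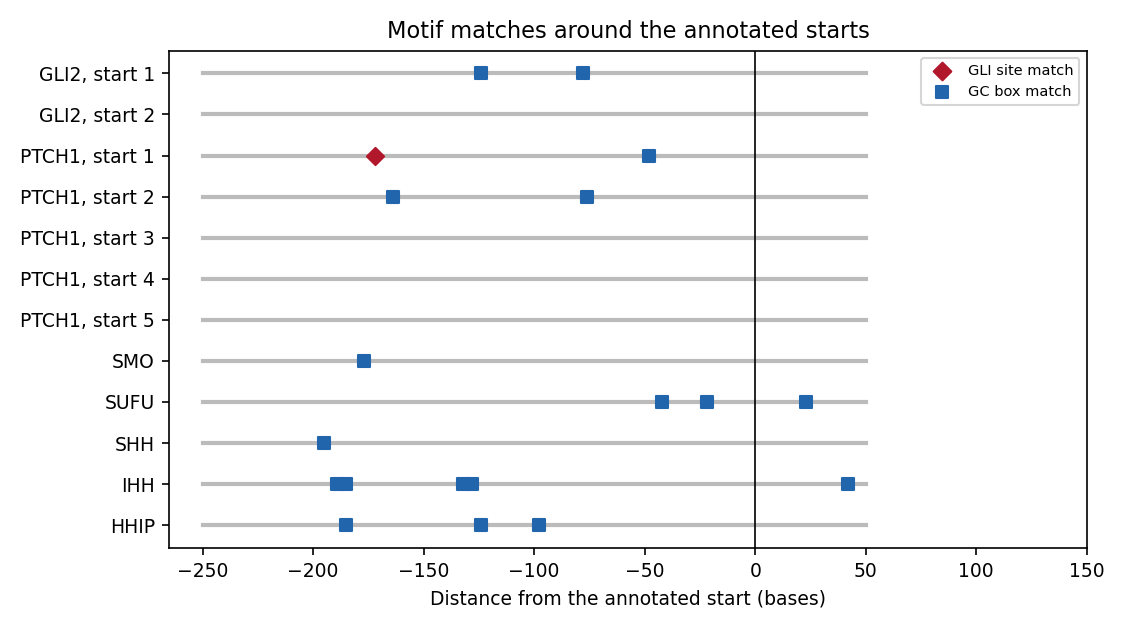
Positions of GLI consensus and GC box matches (first base, on either strand) in 12 RefSeq promoter windows of 7 Hedgehog genes, in bases from each annotated start. The GLI consensus match lies in 1 window, a PTCH1 window at -172, while GC box matches are spread over 8 windows.

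The rest of the pathway was described with 5 lists holding 89 further genes, of which 83 were measured. Together 39 rose, 23 fell and 21 did not pass, so 74.7% were called, against 60.0% of all genes. The share called depends on signal level, so these shares are not a like comparison. With only genes at or above the median level tested, 52 of 57 pathway genes were called, and 7653 of 9209 genes in all. Of 7 genes of ligand production and release, 3 rose and 2 fell. SCUBE1, of a family of secreted proteins that help ligands leave the cell, was at 8.54, 8.65 and 8.57 in SAHA and 6.91, 6.93 and 6.92 in control, a 3.19-fold rise (adjusted p = 4.09e-08). DISP2, a relative of the ligand-releasing transporter, rose by 1.57 and DISP1, that transporter, by 0.24. SCUBE3, of the same family as SCUBE1, changed by -0.57, and HHAT, the acyltransferase that lipid-modifies the ligands, changed by -0.54. DHH, the ligand gene of testis and nerve sheath, did not pass (6.79 ± 0.16 in SAHA, 6.88 ± 0.05 in control, adjusted p = 0.353). After a further quantile normalization all 7 genes of this list were called, DHH and SCUBE2 among the 4 that were lower. Over all genes 11582 were then called in place of 11049.

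Of 5 measured coreceptors and other ligand-binding proteins, 3 rose by more than 2-fold and none fell, while 31.1% of all genes were called higher and 5.84% higher by at least 2-fold. CDON, a coreceptor that presents ligand to PTCH1, had 9.55, 9.45 and 9.63 in SAHA against 8.18, 8.42 and 8.36 in control, a rise of 1.22 (adjusted p = 2.28e-06). GPC3, a glypican that competes for ligand, rose by 1.20, and LRP2, an endocytic receptor that binds SHH, by 1.11. The control mean of LRP2, 5.32, is low on this array scale, and no background call was made. The other coreceptor genes BOC and GAS1 did not pass, with changes of -0.04 and -0.03 (adjusted p = 0.562 and 0.621). The coreceptors thus did not rise together. After a further quantile normalization 2 genes of this list, BOC and GAS1, were called lower, and over all genes 5954 in place of 5314.

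Cytoplasmic and ciliary transducers moved in both directions, 8 higher, 9 lower and 6 not passing of 23, with a median change of -0.017. The shares, 34.8% higher and 39.1% lower, stand beside 31.1% and 28.9% of all genes. With only genes at or above the median level tested, 7 of 20 were called higher and 10 lower. Among the 9209 genes then tested, 3660 were higher and 3993 lower. PRKACA, the catalytic subunit of protein kinase A that marks GLI proteins for cutting, was at 11.37, 11.36 and 11.34 in SAHA and 10.07, 10.10 and 10.12 in control. It was the only gene of this list past 2-fold, at 2.40-fold higher (adjusted p = 8.76e-08). GSK3B, another kinase of that step, rose by 0.51, and BTRC, the ubiquitin ligase subunit that reads the phosphorylated sites, by 0.39. Lower were GRK2, a kinase that phosphorylates active SMO, at -0.74, ARRB1, a beta-arrestin, at -0.67, and EVC, a ciliary partner of SMO, at -0.55.

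Known GLI targets other than GLI1, PTCH1 and HHIP also split, 6 higher and 7 lower, and 8 of 21 did not pass. The share called was 61.9%, near the 60.0% of all genes. With only genes at or above the median level tested, 3 of 11 targets were called higher and 7 lower. Of all 9209 genes at that level, 3660 were higher and 3993 lower. SFRP1, a secreted WNT inhibitor, had 9.30, 9.06 and 9.24 in SAHA and 6.22, 6.45 and 6.09 in control, a 7.71-fold rise (adjusted p = 1.19e-07). SNAI1, a mesenchymal repressor, rose by 2.09, and HES1, better known as a Notch target, by 1.65. FOXM1, a transcription factor of mitotic genes, fell to 8.11, 7.83 and 8.14 in SAHA, against 11.25, 11.36 and 11.29 in control (9.68-fold lower, adjusted p = 3.17e-08). MYCN, a proto-oncogene induced by SHH in cerebellar precursors, changed by -1.43 and CCND1, which encodes cyclin D1, by -1.18. These genes have other regulators, and FOXM1, MYCN and CCND1 are also genes of proliferation. The part of GLI factors or of proliferation in these changes was not tested. Among the targets that did not pass were FOXF1 (6.52 ± 0.08 in SAHA, 6.50 ± 0.02 in control) and NKX2-2 (6.27 ± 0.13 and 6.38 ± 0.06). After a further quantile normalization 11 targets were called lower in place of 7, and over all genes 5954 in place of 5314.

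Genes of ciliary transport and assembly, on which SMO and GLI trafficking depends, were mostly higher, 19 of 27 rising, 5 falling and 3 not passing. Their median change was 0.39, against -0.0027 for all genes, and 70.4% were called higher, against 31.1% of all genes. With only genes at or above the median level tested, 18 of 24 were called higher, against 3660 of 9209 genes in all. IFT20, an intraflagellar transport protein, was at 10.96, 11.05 and 11.06 in SAHA and 9.79, 9.65 and 9.62 in control, a 2.53-fold rise (adjusted p = 3.95e-07). IFT46, of the same transport complex, rose by 1.11, and KIF3A, a subunit of the motor that carries it, by 1.07. The 16 genes of intraflagellar transport complexes are part of this same list, so their count is no further support. Of them 13 rose, 1 fell and 2 did not pass, or 81.2% called higher, against 31.1% of all genes. The 3 largest falls of the list were those of DYNC2H1, the heavy chain of the returning motor, and INPP5E, a ciliary lipid phosphatase, both at -0.59, and MKS1, of the ciliary gate, at -0.58. RNA levels do not show whether the cells carried cilia.

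**Figure D4:**
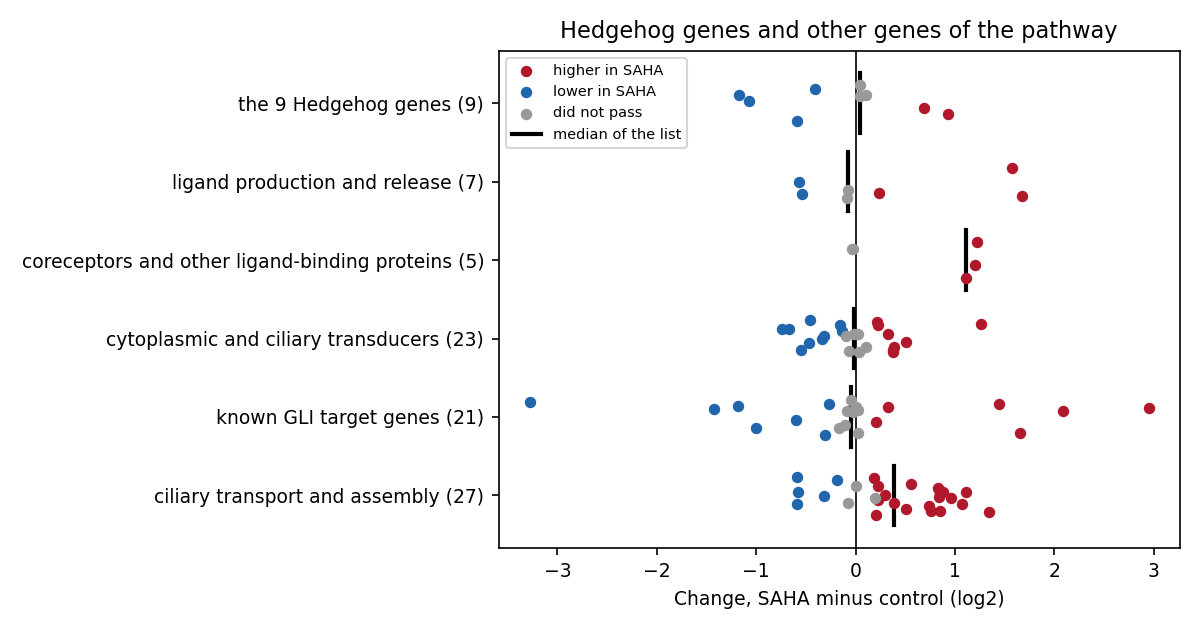
Change (log2, SAHA minus control) of the 9 Hedgehog genes and of the measured genes of 5 pathway lists, a point per gene, coloured by whether limma called it higher or lower, with the list median as a bar. The ciliary list lies mostly above 0 (median 0.39), while targets run from -3.28 to 2.95.

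The genes most like GLI1 over the 6 arrays, by the root mean square difference of log2 profiles centred on each gene's mean, were UNC5CL (0.034), ZFP69 (0.037), XPC (0.047), PRDM10 (0.048) and CGNL1 (0.059). Their changes ran from -0.61 to -0.54. Those most like PTCH1 were DLEU1 (0.031), SPIRE1 (0.032), HERC1 (0.033), APMAP (0.035) and GPS2 (0.036), with changes of 0.89 to 0.95. With 2 groups of 3 arrays, such likeness mainly reflects a similar size of change.

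The 6 called Hedgehog genes kept their direction and their call under every one of the 16 alternative settings in which they were tested. The change of HHIP ran from -1.27 to -1.12, that of SMO from -1.13 to -1.0, and that of PTCH1 from 0.86 to 0.99. GLI1 ran from -0.68 to -0.54, GLI3 from 0.60 to 0.75 and SHH from -0.44 to -0.37. For GLI2 and IHH the sign itself depended on the scaling or on which array was left out, and SUFU stayed above 0 without passing, between 0.046 and 0.13.

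**Figure D5:**
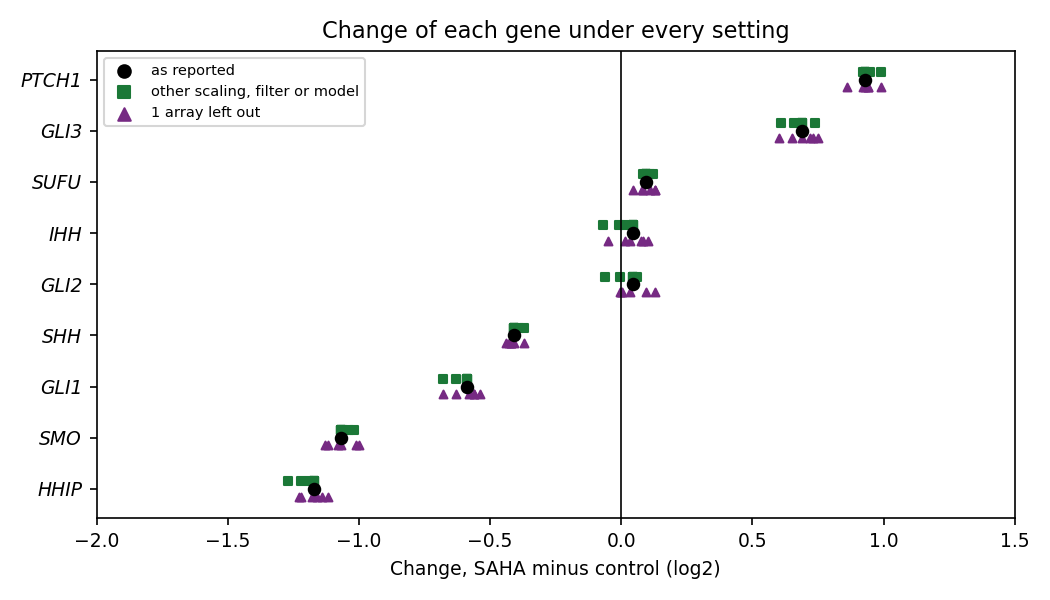
Change (log2, SAHA minus control) of each Hedgehog gene as reported, under other scalings, filters and models, and with each of the 6 arrays left out in turn. The 6 called genes stay on their side of 0, and GLI2 and IHH lie on both sides.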

How the data were processed

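RNA was measured on whole-transcript arrays from Affymetrix with the Ambion WT Expression Kit, 3 arrays of SAHA-treated and 3 of control cells, grouped by the sample titles. The authors deposited an RMA signal intensity per probe set on a linear scale, with RMA named in the submitters' processing notes and its software and version not given in the sources used here. RMA brings all arrays to nearly 1 distribution, which hides a change in total RNA per cell and may compress the folds of dim genes. Log2 of the deposited intensity was taken.

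The platform annotation names a single gene for 19460 of the 33252 probe sets. Current symbols came from a RefSeq table (GRCh38.p14), matched by Entrez identifier for 19429 of these. A gene with several probe sets was represented by that with the highest mean over all 6 arrays, giving 18417 genes. Of the 89 pathway genes 6 were not analysed here, nor was 1 of the 4 blood cell markers.

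The groups were compared with limma 3.58.1 (R 4.3.3, lmFit and eBayes) without covariates. Genes were called at 0.05 after Benjamini-Hochberg adjustment across the 18417 genes. Tests were two-sided, and the number of arrays limits the precision. On simulated data with 18417 genes, the fit recovered 83.6% of 67 genes given a log2 change of 0.5. It recovered 100% of the 67 and 66 genes given 1 and 2, with 14 false calls. No other genes were changed, whereas 11049 were called in the data. The adjustment acts differently there, so these rates do not carry over to the data. The members and lists were chosen with earlier results of these data known. Named from each pathway list were the called genes with up to 3 of the largest rises and falls, plus DHH, SCUBE2, BOC, GAS1, FOXF1 and NKX2-2, chosen after their values were seen. The 16 alternatives covered scaling (quantile normalization again, median centring, cyclic loess), a floor on the mean log2 level (5, or the median of 8.14), averaging a gene's probe sets, the model (trended robust eBayes, no moderation, array weights, the replicate block) and leaving out each array in turn.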

Additional observations from a re-analysis of the deposited data

How the results depend on the processing

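The count of called Hedgehog genes was 6 of 9 as reported, also with each array left out in turn (6 to 6). With a floor at the median level it was 3 of the 4 genes tested, since GLI1, GLI2, GLI3, IHH and HHIP lie under it. At that floor 7653 of 9209 genes in all were called. The sign of GLI2 turned to -0.063 and that of IHH to -0.071 after a further quantile normalization, and to -0.0057 and -0.008 under cyclic loess. With arrays left out, GLI2 ran from -0.0049 (without SAHA replicate 2) to 0.13, and IHH from -0.05 (without control replicate 2) to 0.10, never passing the test. The count over all genes was 11049 as reported and 10190 to 10928 with an array left out, and that over the 5 pathway lists 62 and 60 to 63. Leaving out genes under the median level moved the genes called higher from 5735 of 18417 to 3660 of 9209. Those called lower went from 5314 to 3993. The known targets called higher went from 6 of 21 to 3 of 11, and those called lower from 7 of 21 to 7 of 11. Of the ligand and coreceptor lists 1 gene each was left, called higher. After a further quantile normalization 4 ligand-release genes were called lower in place of 2, 2 coreceptor genes in place of 0 and 11 targets in place of 7. Over all genes 5954 were then called lower in place of 5314. The shift was thus not confined to these lists, but it was relatively larger in them. The 26 genes named by rule from the lists kept direction and call in all 409 alternative values. Deviations from the group means, in samples of the same replicate number, had correlations of -0.0304, -0.167 and -0.00423. These values cannot decide whether such samples were handled together. With the replicate block 10601 genes were called, 6 of the 9 Hedgehog genes and 61 pathway genes among them.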

Other observations

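Genes related in sequence to the Hedgehog genes were listed after the values above were seen. Of 7 measured genes with GLI-like zinc fingers (the GLIS and ZIC genes), 3 fell, none rose and 4 did not pass, against 28.9% of all genes called lower. ZIC2, a forebrain factor whose protein can bind GLI proteins, was at 10.28, 10.10 and 10.15 in SAHA and 11.89, 11.87 and 11.85 in control, 3.24-fold lower (limma adjusted p = 9.54e-08). ZIC5, its neighbour on the chromosome, changed by -0.76 and GLIS2, a kidney and cilium-linked factor, by -0.71. ZIC1 lay at 6.78 ± 0.05 in SAHA and 6.76 ± 0.13 in control (SD, n = 3), a difference within the spread of the arrays.

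Of 7 genes related to PTCH1, DISP1 or HHIP, 2 rose, 2 fell and 3 did not pass, so 57.1% were called, against 60.0% of all genes. NPC1, a lysosomal cholesterol transporter with a sterol-sensing domain like that of PTCH1, was at 11.95, 11.95 and 11.94 in SAHA and 10.72, 10.78 and 10.72 in control, 2.31-fold higher (adjusted p = 1.16e-07). DISP3 rose by 0.50, while PTCHD1 and PTCHD4 both changed by -0.51. The HHIP relatives HHIPL1 and HHIPL2 did not pass, at -0.02 and -0.17 (adjusted p = 0.874 and 0.0582), whereas HHIP itself was 2.26-fold lower in SAHA. The difference between HHIP and its relatives was not tested.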
